A study of Mus musculus with 39 samples.

Results

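Clock output bZIP factors are basic leucine zipper transcription factors whose RNA levels cycle with the circadian clock and which pass the rhythm on to metabolic genes. Dbp, Hlf, Tef and Nfil3 were taken as members by their gene symbols in the probe annotation of the array. They are 4 of the 16879 gene symbols on the array, each with 1 probe spotted once per array, and all 4 passed the filter on dim signals (14655 symbols, 17560 probes). The 4 genes were chosen by their break and no-break levels in these same arrays, so differences between break and no-break groups are given below as descriptions without a test.

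The core clock is a feedback loop in which the activators Arntl (Bmal1) and Clock bind E-boxes and switch on the Per and Cry genes, whose proteins then shut the activators off. Dbp, Hlf and Tef form the PAR (proline and acidic amino acid-rich) bZIP subfamily, are themselves switched on by the loop, and activate genes with D-boxes. Nfil3 (E4bp4) is a repressor that binds the same D-boxes, and it is held down by the Rev-erb receptors Nr1d1 and Nr1d2. It is also known as a factor of immune cells that responds to cytokines.

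Lung RNA of 39 male C57BL/6 x CBA F1 hybrid mice, aged 8 to 10 weeks at exposure, was measured in 8 groups of 5 mice, except 12 week smoke with 4. Smoke mice breathed mainstream tobacco smoke (MTS) from 2 cigarettes a day, 5 days a week, for 6 or 12 weeks in a nose-only system, and sham mice were placed in restrainers only. One smoke and one sham group of each duration then spent 6 weeks without exposure (the break; 6 week smoke and break, 6 week break sham, 12 week smoke and break, 12 week break sham). The smoke-exposed mice without a break were killed 3 hours after the last cigarette; the labels give 3 hours for all 8 groups, so the groups here follow the sample titles. Mice were kept on a light-dark cycle, but the clock time of killing is not given in the sources used here, so that a break and a different hour of sampling cannot be told apart. Greater age and a longer time since the last session, of smoke or of restraint, also went with the break and cannot be told apart from it. The tissue was part of 1 left lung lobe per mouse, taken whole, and a lower level may mean fewer cells of a type or less RNA per cell, which cannot be told apart.

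Every value below is a log2 ratio of the lung (Cy5) to a universal mouse reference RNA (Cy3) on 1 array, where a difference of 1 between groups is a 2-fold difference, and replicate numbers only name mice. The median Cy5 signal of an array was 2.2 to 8.94 times its local background, 2.2 to 8.94 in the 19 arrays without a break and 2.4 to 7.86 in the 20 with one. All 9 lung markers examined, among them the surfactant gene Sftpc, exceeded the detection threshold on at least 38 of 39 arrays. The smoke-induced cytochrome Cyp1a1 was at 5.07 to 8.06 in the 9 smoke arrays without a break and at 0.448 to 2.81 in 29 of the other 30. In the array labelled 6 week sham replicate 2 it was at 6.46, so the library labelled 6 week sham replicate 2 goes against its label, and the results of the members that it moves are given with and without it.

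The 250 bases upstream of the annotated starts of the 4 genes are shown because Dbp and Hlf were the members that moved together, and Tef and Nfil3 were not. They come from RefSeq on GRCm38.p6 and are written 5′ to 3′ on the strand of the gene. Capitals mark letters found on either strand of an E-box (CACGTG), D-box (TTATGTAA or TTACGTAA), Rev-erb/ROR element (TAGGTCA or TGGGTCA), cAMP element (TGACGTCA) or AP-1 site (TGAGTCA or TGACTCA). The segments are chr7:45704997-45705246 on the plus strand (Dbp), chr11:90390918-90391167 on the minus strand (Hlf), chr15:81802423-81802672 and chr15:81811164-81811413 on the plus strand (2 starts of Tef), and chr13:52981040-52981289 on the minus strand (Nfil3).
Dbp: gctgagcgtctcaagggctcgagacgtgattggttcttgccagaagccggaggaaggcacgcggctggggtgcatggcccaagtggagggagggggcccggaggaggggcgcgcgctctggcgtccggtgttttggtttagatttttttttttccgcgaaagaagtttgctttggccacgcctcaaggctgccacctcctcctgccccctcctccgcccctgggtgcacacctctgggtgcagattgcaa
Hlf: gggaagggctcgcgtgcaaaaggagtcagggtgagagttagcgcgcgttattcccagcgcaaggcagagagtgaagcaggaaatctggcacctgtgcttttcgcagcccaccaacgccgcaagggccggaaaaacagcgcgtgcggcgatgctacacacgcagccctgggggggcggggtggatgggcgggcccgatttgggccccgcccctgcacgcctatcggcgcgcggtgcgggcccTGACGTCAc
Tef, start 1: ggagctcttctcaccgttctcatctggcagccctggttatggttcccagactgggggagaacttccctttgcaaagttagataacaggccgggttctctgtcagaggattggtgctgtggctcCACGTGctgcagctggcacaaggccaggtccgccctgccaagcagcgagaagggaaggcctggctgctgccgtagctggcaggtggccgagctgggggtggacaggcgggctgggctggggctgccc
Tef, start 2: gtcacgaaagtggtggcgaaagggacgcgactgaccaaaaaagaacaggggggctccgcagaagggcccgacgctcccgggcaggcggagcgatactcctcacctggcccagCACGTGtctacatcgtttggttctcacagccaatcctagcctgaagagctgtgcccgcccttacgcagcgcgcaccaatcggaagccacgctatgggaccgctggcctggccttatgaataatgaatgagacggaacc
Nfil3: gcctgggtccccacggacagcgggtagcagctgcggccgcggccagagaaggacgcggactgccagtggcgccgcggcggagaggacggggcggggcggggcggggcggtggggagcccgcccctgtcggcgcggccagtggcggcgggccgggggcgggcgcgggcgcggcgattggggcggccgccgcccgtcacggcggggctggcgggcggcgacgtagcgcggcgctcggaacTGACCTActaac

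Each Tef segment held 1 E-box, beginning 127 and 138 bases before its start, and 6.02% of the 32851 promoters of the same length held one. The Nfil3 segment held 1 Rev-erb/ROR element, as the reverse complement TGACCTA, beginning 12 bases before the start (5.38% of promoters). The Hlf segment held a cAMP element beginning 9 bases before the start (1.55% of promoters). No D-box was found in any of the 5 segments, and 0.931% of promoters held one. None of the searched letters lay in the Dbp segment, which says only that they are not in this window. The Nfil3 segment was 81.6% G or C, against 60.4% to 67.2% in the other 4.

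Dbp, a PAR bZIP factor known for its large daily swing, was high in all groups killed without a break and low in all groups after one. In 6 week sham the 5 mice had 0.57, 1.67, 1.81, 2.22 and 2.01 (mean 1.66, SD 0.64), the second value being that of the array that goes against its label. In 6 week smoke they had 0.93, 1.79, 1.78, 1.58 and 1.82 (mean 1.58, SD 0.38). The first value of each of these groups came from a Cy5 spot at the scanner limit and is a lower bound, so its place among the mice of its group is not known. After the break, 6 week break sham had 0.26, 0.96, 0.84, 0.56 and 0.84 (mean 0.69, SD 0.28). The 5 mice of 6 week smoke and break had -0.17, 0.45, 0.32, -0.51 and 0.13 (mean 0.04, SD 0.39), the lowest of the 8 group means. Every mouse of 6 week smoke and break was thus below every mouse of 6 week smoke, while the measured value of 1 mouse of 6 week sham, 0.57, lay within the range of 6 week break sham. As 0.57 is a lower bound, whether these 2 groups overlap is not known.

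The 12 week arms had the same order for Dbp. The 12 week sham mice had 1.27, 2.16, 1.83, 1.95 and 2.36 (mean 1.91, SD 0.41), the highest group mean. The 4 mice of 12 week smoke had 1.09, 1.21, 1.45 and 1.45 (mean 1.30, SD 0.18). Of the sham values, only the lower bound 1.27 lay within the range of smoke. In 12 week break sham the values were 0.60, 0.91, 1.02, 1.29 and 0.84 (mean 0.93, SD 0.25). In 12 week smoke and break they were 0.29, 0.66, 0.50, 0.58 and 0.47 (mean 0.50, SD 0.14). No mouse of 12 week smoke and break reached the lowest of 12 week smoke, though 1.09 is a lower bound. The highest 12 week break sham mouse had 1.29, and since the 1.27 of 12 week sham is a lower bound, whether the sham groups overlap is not known. Neighbouring group means in the order from 12 week sham down to 6 week smoke and break lay 0.08 to 0.46 apart. The steps of 0.37 from 12 week smoke to 12 week break sham and of 0.46 above 6 week smoke and break exceeded the SDs of both neighbours, and the other steps did not.

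**Figure D1:**
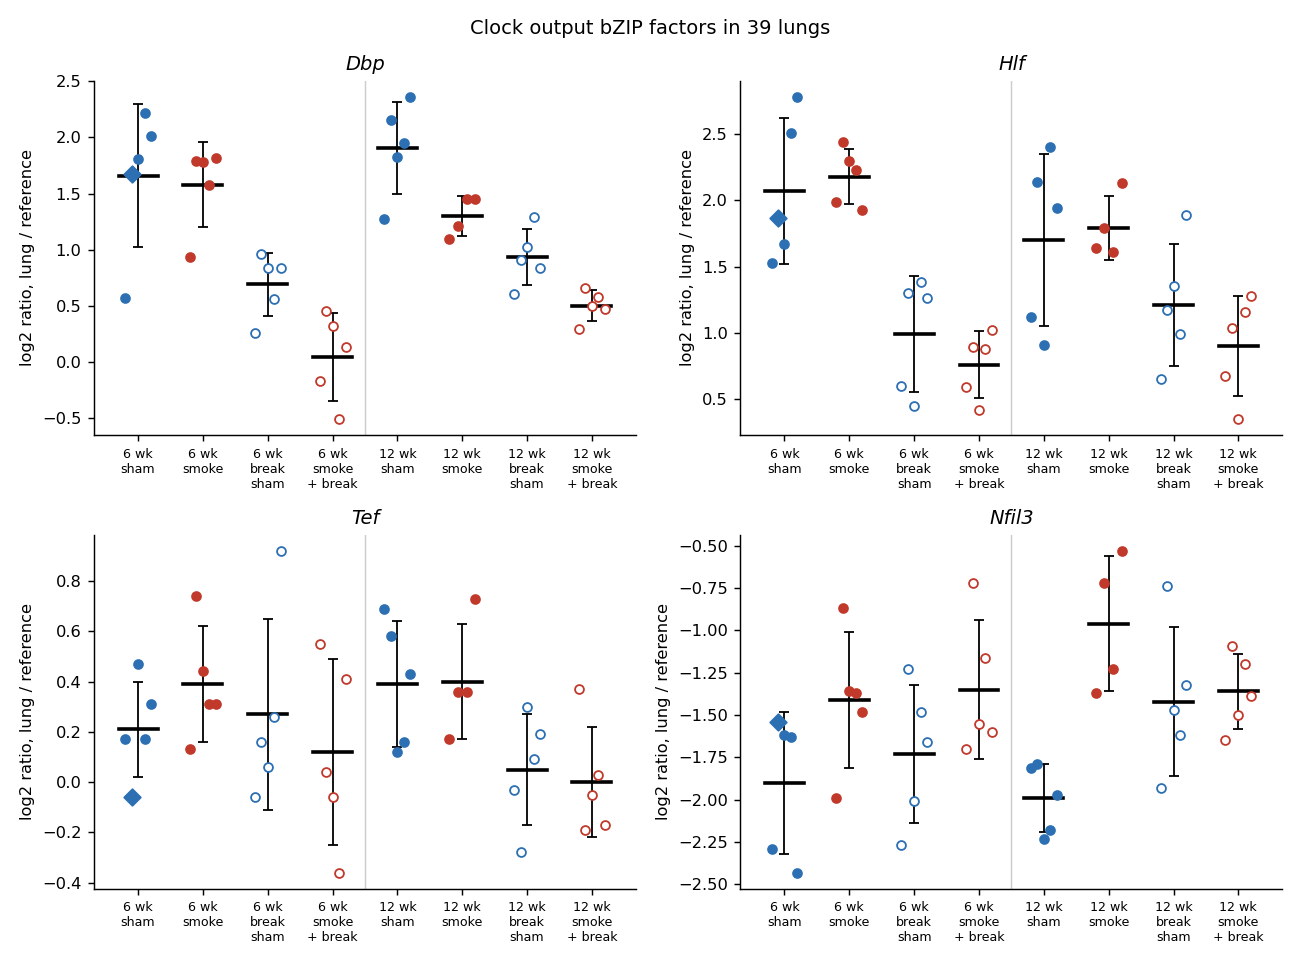
Log2 ratio of lung to reference (vertical axis) of each member in each of the 8 groups (horizontal axis); points are single mice, filled without and open after a break, blue for sham and red for smoke, with the mean and SD in black. A diamond marks 6 week sham replicate 2. The vertical scale differs between panels. Dbp and Hlf lie lower in the open points, and Nfil3 is highest in 12 week smoke.

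With all 39 arrays in 1 model, the mean break difference of Dbp over the 4 arms was -1.08 (SE 0.08), a 2.11-fold lower level. It ranked 7 by size among 17560 probes, of which 0.0683% differed by more than 1 in either direction. By arm the difference was -0.99 (SE 0.17) in sham and -1.54 (SE 0.17) in smoke after 6 weeks. After 12 weeks it was -0.98 (SE 0.17) in sham and -0.82 (SE 0.18) in smoke. All 18 differences within single runs of label dates were below 0, between -2.29 and -0.31. For the -0.31, in the 6 week sham arm, both spots were at the scanner limit, so the sign in that run is not known.

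The Cy5 spot of Dbp was at the scanner limit of 65535 on 7 arrays, 6 of them without a break, so that those 7 values are lower bounds of the lung level. These were the first replicate of 6 week sham, 6 week smoke, 6 week break sham, 12 week sham and 12 week smoke, and 1 further mouse each of 6 week sham and 12 week sham. With those arrays left out, an alternative chosen after the values were seen, the mean break difference was -1.16 (SE 0.08) and that of the 6 week sham arm -1.26 (SE 0.17). Without the array labelled 6 week sham replicate 2 the mean was -1.08 (SE 0.09).

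Hlf, a PAR bZIP factor that shares D-box targets with Dbp, was lower after the break as well. The 6 week sham mice had 1.53, 1.87, 1.67, 2.51 and 2.78 (mean 2.07, SD 0.55). Those of 6 week smoke had 1.99, 2.44, 2.30, 2.23 and 1.93 (mean 2.18, SD 0.21). These 2 groups overlapped almost fully. After the break, 6 week break sham had 0.60, 1.30, 0.45, 1.38 and 1.26 (mean 0.99, SD 0.44). The corresponding smoke mice, 6 week smoke and break, had 0.59, 0.89, 0.42, 0.88 and 1.02 (mean 0.76, SD 0.25). All 10 mice with a break were below all 10 without one in the 6 week arms.

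At 12 weeks the sham arms of Hlf were less separate. The values of 12 week sham were 1.12, 2.14, 0.91, 2.40 and 1.94 (mean 1.70, SD 0.65), the widest spread of any group for this gene. Those of 12 week break sham were 0.65, 1.17, 1.35, 0.99 and 1.89 (mean 1.21, SD 0.46). These 2 groups overlapped. The 12 week smoke mice had 1.64, 1.79, 1.61 and 2.13 (mean 1.79, SD 0.24). In 12 week smoke and break the levels were 0.67, 1.04, 0.35, 1.16 and 1.28 (mean 0.90, SD 0.38), all below 12 week smoke.

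The mean break difference of Hlf was -0.98 (SE 0.08), 1.98-fold lower and rank 13 of 17560 by size. It was -1.04 (SE 0.15) and -0.49 (SE 0.15) in the 6 and 12 week sham arms. In smoke it was -1.42 (SE 0.15) and -0.98 (SE 0.16) at 6 and 12 weeks. Without the array labelled 6 week sham replicate 2 the 6 week sham difference was -1.17 (SE 0.14) and the mean -1.02 (SE 0.07). The spot of Hlf was never at the scanner limit. In the order of its group means, from 6 week smoke (2.18) to 6 week smoke and break (0.76), no step between neighbours exceeded the SDs of both.

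Counted over arms, break and no-break mice did not overlap in 2 of 4 arms for Dbp and in 3 of 4 for Hlf, and in none for Tef and Nfil3. Both overlaps of Dbp, in the sham arms, came through lower bounds from spots at the scanner limit, so that its count is not settled. Lower values without overlap were seen in 0.347% of all probes in the 6 week sham arm, 0.569% in the 12 week sham arm, 1.77% in the 6 week smoke arm and 2.51% in the 12 week smoke arm. Since the genes were chosen with these contrasts in view, nothing is read from that excess.

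Tef, the third PAR bZIP activator, varied little between groups, and its spot was dim. Its Cy5 signal was 0.663 to 2.82 times the detection threshold (median 1.54) and exceeded it on 37 of 39 arrays, against a lowest value of 27 times for Dbp. The lowest mouse over all groups had -0.36 (6 week smoke and break) and the highest 0.92 (6 week break sham). Group means lay between 0 (SD 0.22, 12 week smoke and break) and 0.40 (SD 0.23, 12 week smoke), with neighbours 0.01 to 0.12 apart, less than any SD within a group.

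In the 12 week arms Tef was nonetheless mostly lower after the break. The 12 week sham mice had 0.69, 0.58, 0.12, 0.16 and 0.43. Those of 12 week break sham had -0.03, -0.28, 0.30, 0.09 and 0.19, overlapping them. The difference was -0.34 (SE 0.18) in sham and -0.42 (SE 0.19) in smoke at 12 weeks, and 0.08 (SE 0.18) and -0.27 (SE 0.18) at 6 weeks. Over the 4 arms the mean was -0.24 (SE 0.09), rank 1627 of 17560. Leaving out the array labelled 6 week sham replicate 2 gave 0 (SE 0.19) in the 6 week sham arm and a mean of -0.26 (SE 0.09).

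Nfil3, the repressor of D-box genes, rose with smoke at 12 weeks. It was lowest in 12 week sham, with -1.81, -1.79, -2.23, -2.18 and -1.97 (mean -1.99, SD 0.20). It was highest in 12 week smoke, with -1.37, -0.72, -1.23 and -0.53 (mean -0.96, SD 0.40). Every 12 week smoke mouse was above every 12 week sham mouse. In limma, adjusted by Benjamini-Hochberg over 17560 probes, Nfil3 rose 2.02-fold (log2 difference 1.01, SE 0.16, adjusted p = 0.000449). Of all probes, 0.376% rose at that threshold, and 1.99% were higher in 12 week smoke without overlap.

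The 12 week change of Nfil3 was positive in each of the 4 runs of label dates that held both groups, from 0.44 to 1.44. Its adjusted p lay between 1.46e-05 and 0.0534 over the alternatives, and the call was lost where the runs were not taken into account (difference 1.03, adjusted p = 0.0534).

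At 6 weeks Nfil3 did not pass the test. The 6 week sham mice had -2.29, -1.54, -1.62, -1.63 and -2.43 (mean -1.90, SD 0.42), the array that goes against its label being the highest of them. The value of that array, -1.54, also lay above every 12 week sham mouse and below every 12 week smoke mouse. The 6 week smoke mice had -1.99, -0.87, -1.36, -1.37 and -1.48 (mean -1.41, SD 0.40). One smoke mouse lay among the sham values. The difference was 0.38 (SE 0.15, adjusted p = 0.444), and 0.47 (SE 0.15, adjusted p = 0.288) without the array labelled 6 week sham replicate 2. The 12 week change exceeded the 6 week change by 0.63 (95% confidence interval 0.19 to 1.07), or by 0.54 without that array, but this difference did not pass over all probes (adjusted p = 0.971, and 0.978 without it), so that the smoke change is not shown to differ between durations.

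After the break the smoke groups of Nfil3 were not distinguished from their shams. In 12 week break sham the mice had -1.93, -0.74, -1.47, -1.62 and -1.32 (mean -1.42, SD 0.44). The -0.74, the highest of them, came from the dimmest Nfil3 spot of the 39 arrays. Its Cy5 signal was 1.26 times the detection threshold, and its Cy3 signal of 277 was the lowest as well. In 12 week smoke and break they had -1.65, -1.09, -1.50, -1.20 and -1.39 (mean -1.36, SD 0.22). The difference was 0.05 (SE 0.15, adjusted p = 0.969; 95% confidence interval -0.25 to 0.35). In 6 week break sham the values were -2.27, -1.23, -2.01, -1.48 and -1.66, against -1.70, -0.72, -1.55, -1.16 and -1.60 in 6 week smoke and break. That difference was 0.39 (SE 0.15, adjusted p = 0.999) and was positive in all 5 runs, from 0.07 to 0.58. The mean break difference of Nfil3 was 0.08 (SE 0.07), made up of 0.58 (SE 0.15) in 12 week sham, -0.38 (SE 0.16) in 12 week smoke and 0.07 in each 6 week arm (SE 0.15). The 0.58 includes the array with the dimmest spot, and ran from 0.51 to 0.74 with single arrays left out. Leaving out the array labelled 6 week sham replicate 2 gave 0.15 (SE 0.15) in the 6 week sham arm and a mean of 0.10 (SE 0.07). No step between neighbours in the order of the 8 means, 0 to 0.38 in size, exceeded the SDs of both groups.

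Markers of macrophages had higher mean levels in the smoke arrays, and none of the 5 passed the test at 6 or 12 weeks. The mean level of the 5 macrophage markers (Cd68, Adgre1, Marco, Mrc1 and Chil3) ran from 0.56 to 1.38 among 12 week sham arrays, and from 1.34 to 1.79 among 12 week smoke arrays. Among 6 week sham arrays, with the array that goes against its label kept in, it ran from 0.65 to 1.32, and among 6 week smoke arrays from 1.38 to 2.25. All 5 genes lay above 0 at 6 weeks (median 0.59) and at 12 weeks (median 0.72, against 0.005 over all probes). Their part in the Nfil3 result was not tested. Of the 10 glucocorticoid-responsive genes listed, 9 also lay above 0 (median 0.36), and none of the 10 passed.

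Dbp had a lower mean in smoke than in sham in each of the 4 smoke comparisons, without passing the test in any. At 12 weeks the difference was -0.60 (SE 0.18, adjusted p = 0.164), below 0 in 4 of 4 runs. In the run with -0.18 the spots of both groups were at the scanner limit, so its sign is not known. After the break it was -0.65 (SE 0.17) in the 6 week arm, with an unadjusted p of 0.000479 and an adjusted p of 0.794 in limma. In the 12 week arm it was -0.43 (SE 0.17, adjusted p = 0.679). Both were below 0 in 5 of 5 runs. At 6 weeks without a break the difference was -0.10 (SE 0.17, adjusted p = 0.92), and -0.12 (SE 0.18, adjusted p = 0.904) without the array labelled 6 week sham replicate 2. It was lower in 2 of 4 runs. In the other runs, with 0.35 and 0.01, the sham spot was at the scanner limit, so their sign is not known. In the 2 comparisons after the break, limma called 0 of 17560 probes (0%), with 758 and 1129 at an unadjusted p under 0.05 in the 6 and 12 week arms.

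**Figure D2:**
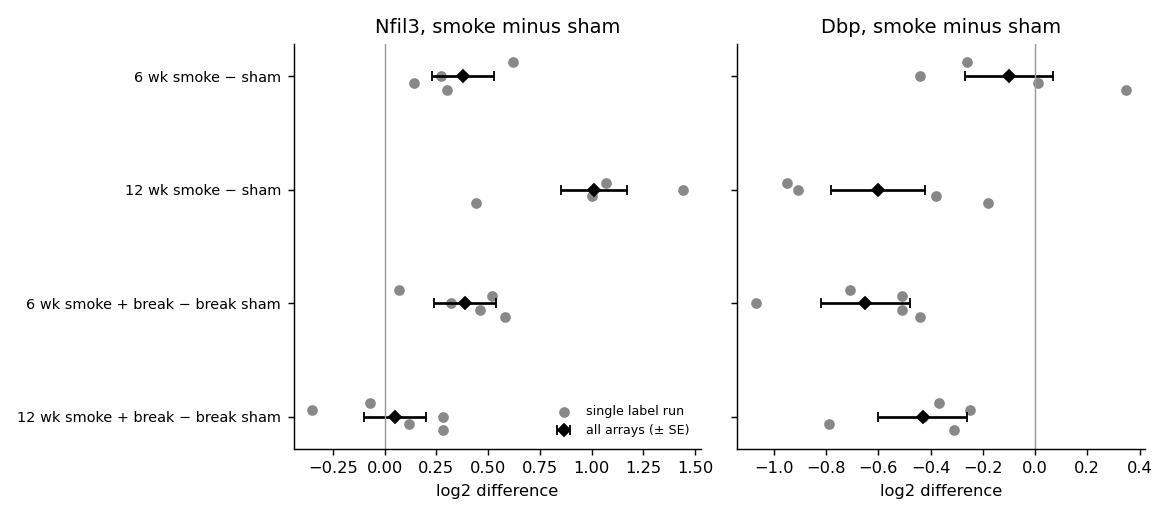
Smoke minus sham difference (log2, horizontal axis) of Nfil3 and Dbp in the 4 pairs of groups; grey points are single runs of label dates and black diamonds the estimate over all arrays with its SE. For Nfil3 at 12 weeks all 4 runs lie between 0.44 and 1.44, and for Dbp all 5 runs of each comparison after a break lie below 0.

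Neither Hlf nor Tef passed in a smoke comparison. For Hlf the difference was 0.15 (SE 0.15) at 6 weeks and 0.18 (SE 0.16) at 12 weeks, and -0.24 (SE 0.15) and -0.31 (SE 0.15) after the break, with adjusted p from 0.766 to 0.999. The 95% confidence interval of the 12 week value, -0.15 to 0.51, leaves room for a rise of that size. For Tef the 4 differences lay between -0.15 and 0.20 (SE 0.18 to 0.19, adjusted p 0.834 to 0.999). At 6 weeks, without the array labelled 6 week sham replicate 2, Hlf differed by 0.02 (SE 0.14, adjusted p = 0.987) and Tef by 0.12 (SE 0.19, adjusted p = 0.906). The share of probes called was 0.0626% at 6 weeks (11 probes, and 33 without the array labelled 6 week sham replicate 2) and 0.433% at 12 weeks, and 1 of the 4 members, Nfil3, was among them, at 12 weeks.

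**Figure D3:**
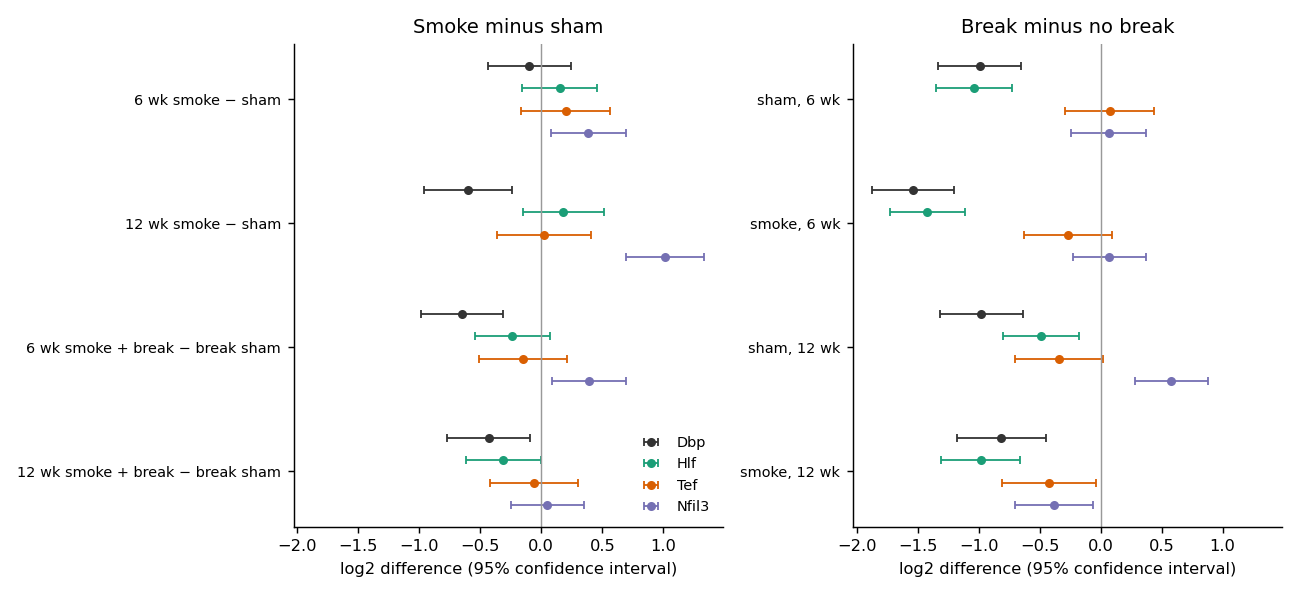
Log2 differences with 95% confidence intervals (horizontal axis) for the 4 members, for smoke minus sham on the left and break minus no break on the right, by arm (vertical axis). Dbp and Hlf lie below 0 in every break comparison, and among the smoke comparisons Nfil3 at 12 weeks, at 1.01, is the value that passed the test over all probes.

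Duration of exposure changed none of the members past the test. In sham mice the 12 week minus 6 week difference was 0.23 for Dbp, -0.33 for Hlf, 0.20 for Tef and -0.20 for Nfil3 (SE 0.15 to 0.18, adjusted p 0.716 to 0.865). Without the array labelled 6 week sham replicate 2 these were 0.22, -0.46, 0.13 and -0.11, with adjusted p from 0.514 to 0.924. In smoke mice Nfil3 differed most, by 0.43 (SE 0.16, adjusted p = 0.701). Mice of 6 week break sham and of 12 week sham were killed about equally long after the first session, and Dbp had 0.26 to 0.96 in the former and 1.27 to 2.36 in the latter. The 0.26 came from a spot at the scanner limit and is a lower bound, so whether the groups overlap for Dbp is not known. Hlf had 0.45 to 1.38 and 0.91 to 2.40 in these groups, which overlapped.

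Among mice of the same group, Dbp and Hlf tended to vary together, which is not settled by the tests below. After group and run were removed, their values over the 39 arrays had a Pearson r of 0.41 and a Spearman rho of 0.46 (permutation p = 0.00909 and 0.00387, adjusted over the 6 pairs of members 0.0545 and 0.0232). Without the 2 arrays farthest from the median of Dbp, r was 0.42, and without the array labelled 6 week sham replicate 2 it was 0.44. A correlation with Dbp at least as strong and of the same sign was found for 1.86% of all probes. For Dbp and Tef r was 0.34 (permutation, adjusted p = 0.109), falling to 0.23 without the 2 farthest arrays. Nfil3 did not pass with any other member, at r of -0.29 to 0.20 (permutation, adjusted p 0.142 to 0.443). The permutations treated the 39 values of a gene as independent, although the model left 27 residual degrees of freedom. All permutation p-values given here are therefore too small, and no link between members is taken as shown. For Dbp, 7 of the values are also lower bounds.

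Over all 39 arrays, with the run means removed and the groups left in, the probes most like each member were found as a description without a test. The points share groups, arrays and signal depth. Closest to Dbp were Rhebl1 (r = 0.86), Hlf (0.84) and Tspan4 (0.84), and most opposed were Adm (-0.83), the gene of the vessel-widening peptide adrenomedullin, Clmp (-0.81) and Mrpl54 (-0.81). For Hlf they were Cys1 (0.91), Slc25a33 (0.89) and Tspan4 (0.88), with Clmp (-0.89), Mthfd1 (-0.87), an enzyme of folate metabolism, and Col5a3 (-0.85), a collagen chain, at the other end. Tspan4 and Clmp were thus named for both genes. Tef reached only 0.64 (Prss42), 0.62 (Pkig) and 0.60 (Slc1a5), with Lgals2 (-0.71), D1Ertd471e (-0.66) and C2 (-0.63) opposed. Nfil3 was most like Tnfaip2 (0.68), a gene induced by tumour necrosis factor, Gsr (0.67), glutathione reductase, and Lonrf3 (0.67), and was opposed by Birc2 (-0.61), Zfp263 (-0.60) and E130308A19Rik (-0.59).

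Other clock genes differed after the break too. Test results are given for them, but the lists were chosen with earlier results of these data known. Their p-values and counts are therefore no independent evidence, here and in the paragraphs below on receptors, outputs, targets and glucocorticoid-responsive genes. Of the 10 repressors and their kinases that were measured, 7 fell over the 4 arms and none rose, against 3.68% of all probes lower and 4.62% higher. Per2, a repressor at the centre of the loop, fell by 2.01 (SE 0.12, 4.01-fold, limma adjusted p = 3.03e-13). Cry1, its partner, fell by 0.71 (SE 0.09, adjusted p = 1.7e-06). Bhlhe40, Bhlhe41, Per1, Per3 and Csnk1e fell by 0.18 to 0.43, whereas Cry2 (0.01), Csnk1d (-0.02) and Timeless (-0.11) did not pass. The median of the list was -0.35. Without the array labelled 6 week sham replicate 2, 6 of the 10 were called.

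The activators and receptors split. Arntl, the partner of Clock, rose by 0.72 (SE 0.09, adjusted p = 2.7e-06) and Clock by 0.21 (SE 0.06, adjusted p = 0.018). The Rev-erb gene Nr1d2, a repressor of Arntl and Nfil3, fell by 0.65 (SE 0.10, adjusted p = 4.93e-05), and Rora, an activator on the same elements, by 0.39 (SE 0.06, adjusted p = 2.47e-05). Nr1d1 (0.16, SE 0.08) and Npas2 (0.06, SE 0.15) did not pass. Of these 6 genes, 2 rose and 2 fell (median 0.11).

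Among 4 other clock outputs, 3 fell, namely the deubiquitinase Usp2 (-0.35, SE 0.08), the NAD-making enzyme Nampt (-0.28, SE 0.04) and Klf10 (-0.27, SE 0.08), while the kinase Wee1 did not pass (-0.25, SE 0.17). Known PAR bZIP targets, listed mostly from liver, lay below 0 in 7 of 8 cases (median -0.19). Of these 8, Cyp2a4 (-0.70, SE 0.19, adjusted p = 0.0158) and the vitamin B6 kinase Pdxk (-0.33, SE 0.08, adjusted p = 0.00495) fell, Nr1i3 (the receptor CAR) rose (0.46, SE 0.09, adjusted p = 0.000772), and the other 5 did not pass. Cyp2a4 belongs to a family of near-identical genes, so that its probe may measure several of them.

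**Figure D4:**
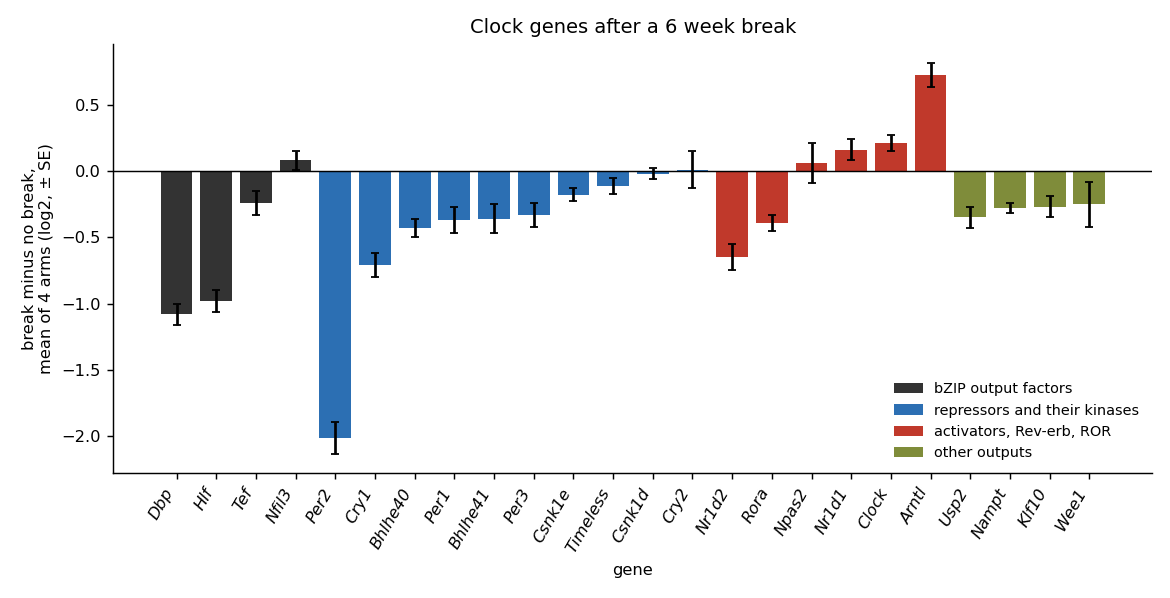
Mean break minus no-break difference over the 4 arms (log2, vertical axis) for the members and the other clock genes measured (horizontal axis), with SE; members in black have no test. Per2 is lowest at -2.01 and Arntl highest at 0.72.

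Genes that respond to glucocorticoids, which also rise and fall daily, fell in part. Of 10 measured, Tsc22d3 (Gilz; -0.73, SE 0.07, adjusted p = 3.64e-08), Fkbp5 (-0.51, SE 0.12, adjusted p = 0.00686) and Klf9 (-0.39, SE 0.09, adjusted p = 0.00332) fell, and none rose (median -0.24). The median of the 10 was -0.02 over the 2 sham arms, with 5 genes above 0, and -0.51 over the 2 smoke arms, with 1 above 0. Klf9 differed by -0.12 (SE 0.12, adjusted p = 0.757) over the sham arms and by -0.67 (SE 0.13, adjusted p = 0.000724) over the smoke arms, and Fkbp5 by -0.22 (SE 0.17, adjusted p = 0.638) and -0.79 (SE 0.18, adjusted p = 0.00423). The difference between sham and smoke arms was not tested. Of 5 C/EBP genes, bZIP factors of another subfamily, Cebpd fell (-0.49, SE 0.12, adjusted p = 0.00955) and the other 4 did not pass. Their part in the lower levels of Dbp and Hlf was not tested. In the 4 smoke comparisons no gene of these clock, target, C/EBP and glucocorticoid lists passed with all arrays. Nr1d1, the Rev-erb receptor that represses Nfil3, came closest in 6 week smoke and break against its sham (-0.83, SE 0.15, adjusted p = 0.0789), and without the array labelled 6 week sham replicate 2 it passed (-0.83, SE 0.14, adjusted p = 0.0284). In that comparison 1 gene of its list also passed in 3 of 9 processing alternatives (no background correction, the deposited ratios and array weights) and without 6 week break sham replicate 3. With spot means in place of medians 1 repressor gene passed at 12 weeks.

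Markers of fat, which can adhere to dissected lung, were detected in both kinds of group. The mean of the 5 adipose markers ranged from 0.49 to 1.40 over the arrays of 6 week sham and from 0.66 to 3.01 over those of 6 week break sham, and none of the 5 passed over the 4 arms (5 of 5 above 0, median 0.18). The mean of the 9 lung markers ranged from 2.62 to 4.29 and from 2.61 to 4.06 in the same groups. Over the 2 sham arms 5 of 5 adipose markers lay above 0 (median 0.36), and over the 2 smoke arms 1 of 5 (median -0.22). Heart and muscle markers were detected too, with Myh6 above threshold on 39 of 39 arrays. None of those 5 passed over the 4 arms (4 above 0, median 0.12). Among the other markers, Foxj1 of ciliated cells (0.55, SE 0.11, adjusted p = 0.00178), Ms4a1 of B cells (0.44, SE 0.10, adjusted p = 0.00397) and Adgre1 of macrophages (0.23, SE 0.07, adjusted p = 0.0406) were higher after the break over the 4 arms, each being 1 gene of its list of 9 lung, 4 lymphocyte and 5 macrophage markers. Above 0 lay 5 of the 9 lung markers (median 0.06), 3 of the 4 lymphocyte markers (median 0.30) and only 2 of the 5 macrophage markers (median -0.03). The macrophage median was 0.28 over the sham arms and -0.47 over the smoke arms. Their part in the results of the members was not tested.

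The lower levels of Dbp and Hlf after the break were present within smoke and within sham. These comparisons share no mice, but the genes were chosen with both in view, so their likeness is a description and no replication. Over the 2 sham arms the mean was -0.99 (SE 0.12) for Dbp and -0.76 (SE 0.11) for Hlf. Without the array labelled 6 week sham replicate 2 the Hlf mean was -0.83 (SE 0.1). Over the 2 smoke arms the mean was -1.18 (SE 0.12) for Dbp and -1.20 (SE 0.11) for Hlf. Per2, given for scale, lay between 2.98 and 3.57 in 6 week sham and between 1.14 and 2.09 after the break. In the 12 week sham arm it lay between 2.57 and 2.81, and between -0.46 and 1.48 after the break, so that neither pair of groups overlapped. In 12 week break sham Per2 exceeded the detection threshold on only 4 of 5 arrays (SD 0.79), so the low end of that range is uncertain.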

How the data were processed

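Lung cRNA carried Cy5 and universal reference cRNA carried Cy3 on every Agilent array, 1 lung per array. The authors' scanner files hold intensity values (ImaGene medians of spot and local background), deposited without background correction or normalization. The authors also deposited log2 ratios after global LOWESS, used as an alternative. From the spot medians, normexp (offset 50), loess within arrays with the 1257 control spots at weight 0, and averaging per probe gave 1 log2 ratio per probe and array, which correlated with the authors' ratios at 0.975 to 0.996. A probe was kept where Cy5 exceeded the trimmed mean plus 3 trimmed SD (5% trimmed) of the negative control spots in at least 4 arrays of a group (17560 of 20868). Median Cy5 was 268 to 1532 per array and the number of arrays limits the precision. The 4 probes of the members were named from GEO's platform annotation, with 19 symbols updated through RefSeq; 30 probes had several symbols and 2603 none.

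The 39 arrays were fitted together in limma 3.58.1 (R 4.3.3). The model held a term for each of the 8 groups and a block of 5 runs, read from the sequence of exposure-date labels, since the study blocked on dates. Each array has a label date of its own, and the runs are a grouping inferred from that sequence, which no label states. P-values were adjusted by Benjamini-Hochberg over 17560 probes, with 0.05 as threshold. The fit was tested on simulated data. Correlations used 100000 permutations. The members and gene lists were chosen with earlier results of these data known. Named genes are all members; per list, genes past the threshold in a smoke contrast and otherwise those with the largest mean break difference; and per member the 3 most and 3 least correlated named probes. The other list members are named for completeness. A gene with several probes was represented by the brightest. Upstream sequences were read from RefSeq promoters. Alternatives covered background correction, normalization, the deposited log2 ratios, the filter, the block, array weights, spot means and each array left out; leaving out the arrays with a saturated Dbp spot was added after seeing the data.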

Additional observations from a re-analysis of the deposited data

Results flagged for a closer look

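One value stood far from the others of its group. Dbp in 6 week smoke replicate 1 was 0.93, against 1.58 for the nearest of the other 4 mice, a gap of 0.725 of the range of the group. Its Cy5 spot was at the scanner limit, so that 0.93 is a lower bound and its distance from the others is not known. The spot was at that limit in the first replicate of 4 other groups too. Over the 32 combinations of member and group, such a rule marks about 1 in 20 by chance. Without that array the break difference of Dbp in the 6 week smoke arm was -1.59 (SE 0.18), against -1.54 with it.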

How the results depend on the processing

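The mean break difference over the 4 arms kept its sign for all 4 members in all alternatives run, and moved by less than the SD within groups (0.24 to 0.29). Against its SE of 0.08 it moved more, from -1.16 to -0.99 for Dbp and from -1.04 to -0.89 for Hlf over the processing alternatives. Nfil3 in 12 week smoke kept its direction in all, from 0.90 to 1.18 with single arrays left out, and passed the threshold in all but the fit without the run block (1.03, adjusted p = 0.0534). Values close to 0 changed sign. Without background correction, Tef in 12 against 6 week smoke was -0.01 and the duration difference of the Hlf smoke change -0.06; the latter was -0.09 with median centring, -0.05 from the deposited ratios and -0.02 without the block. The deposited ratios gave -0.01 for Tef in 12 week smoke, -0.03 for Nfil3 in 12 week smoke and break, and 0 for Tef in 12 against 6 week smoke, where array weights gave -0.02. With spot means Tef was 0.16 in 12 week smoke and break, -0.27 in 12 against 6 week sham, -0.22 in 12 against 6 week smoke, and 0.05 for the duration difference of its smoke change. Without the saturated spots, Dbp in 12 against 6 week sham was -0.10.

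Leaving out single arrays moved the smoke change of Dbp at 6 weeks from -0.29 to 0.03, of Tef at 12 weeks from -0.09 to 0.13, and of Tef after the break from -0.27 to 0.02 (6 weeks) and -0.16 to 0.01 (12 weeks). Nfil3 in 12 week smoke and break ranged from -0.01 to 0.12, Tef in 12 against 6 week smoke from -0.08 to 0.15, and the duration difference of the Hlf smoke change from -0.08 to 0.18. Without the array labelled 6 week sham replicate 2 the residual r was 0.11 for Hlf and Tef, -0.16 for Hlf and Nfil3, and 0.3 for Tef and Nfil3.

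Counts of probes called moved more. At 6 weeks of smoke 11 became 26 with median centring, 22 with array weights and 7 to 33 with single arrays left out (7 without 6 week smoke replicate 1, 33 without 6 week sham replicate 2). At 12 weeks 76 became 46 without the block, 203 with array weights and 44 (without 12 week smoke replicate 1) to 91. For 6 week smoke and break against its sham, 0 became 1 without background correction, 1 from the deposited ratios, 5 with array weights and 0 to 2 with single arrays left out. For the break in sham, 51 at 6 weeks became 15 without the block, 29 with spot means and 32 to 55, and 4 at 12 weeks became 2 without the block and 2 to 10. For the break in smoke, 396 at 6 weeks became 188 without the block, 801 with array weights and 193 to 471, and 286 at 12 weeks became 172 with median centring, 150 without the block, 631 with array weights and 140 to 324. The cause was not tested. No paired analysis was possible because replicate numbers were given in accession order and pair no mice. The dim spot of Tef limits what its values can show.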
